A study of Mus musculus with 27 samples.

Results

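Scratch, MEIS and PBX proteins are transcription factors, and 6 of their genes, taken by symbol from the 24293 rows of the RNA tables, are described here: Scrt1, Scrt2, Meis1, Meis2, Meis3 and Pbx3. Scrt1 and Meis2 are genes that the study places downstream of ND1, the neuronal basic helix-loop-helix factor encoded by Neurod1, and the other 4 are their relatives and partners. The study converted mouse microglia, the resident immune cells of the brain, into neuron-like cells by forced expression of ND1. Since Scrt1 and Meis2 were singled out in work on these same samples, their rise here is not independent evidence of it.

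RNA was sequenced from 5 groups of 3 libraries, all from wild-type C57BL/6 mice at postnatal day 1. Primary cortical microglia labelled Control, with no agent named, were sampled on days 2 and 7. ND1-transduced microglia, which received lentiviruses carrying ND1 and the doxycycline-dependent activator M2rtta, were sampled on days 2 and 7 after doxycycline. Cultured cortical neurons, whose days in culture the labels do not give, were the reference. Bisulfite sequencing covered 1 library of control and 1 of ND1-transduced microglia, the latter also called iN (induced neuronal) and given no day. Nothing says that the replicates came from separate animals or cultures, so p-values measure the spread between these libraries, which may be technical. The 10 ChIP-seq samples of the series were not analysed here.

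Scratch proteins (Scrt1 and Scrt2) are zinc-finger repressors of the Snail superfamily that bind E-box sequences, carry an N-terminal SNAG motif and are expressed in newborn neurons, where they are known to act in migration out of the progenitor layer. MEIS proteins are homeodomain factors of the TALE class, which have a loop extension in the homeodomain and bind DNA in complexes with PBX partners. PBX proteins are TALE factors too, and with MEIS proteins they are best known as cofactors of HOX proteins. In the forebrain, Meis2 is known as a marker and regulator of striatal projection neurons and olfactory bulb interneurons, and Meis1 is known in blood as a regulator of stem cells.

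The genes lie on 4 mouse chromosomes (build GRCm38, the same as mm10): Scrt1 at chr15:76516203-76522129, Scrt2 at chr2:152081529-152095802, Meis1 at chr11:18880428-19019651, Meis2 at chr2:115861264-116067537, Meis3 at chr7:16174012-16186510 and Pbx3 at chr2:34171457-34372045. Meis1 overlaps the long non-coding RNA gene Gm16141, and Meis2 overlaps G630016G05Rik. Neither has a row in the RNA tables, and the strand setting of the counting is not given in the sources used here, so reads of those transcripts in the shared stretches cannot be told apart from the members' own. The 250 bases before 1 transcript start, from RefSeq on GRCm38.p6, were at hand for 3 of the 6 genes. Each of these starts lies inside the annotated gene, 682 bases from its upstream end for Meis1, 2918 for Meis2 and 1383 for Meis3, so other starts of these genes are not covered. The stretches are shown because methylation was also measured there. Capitals mark CpG dinucleotides, the positions that can be methylated. The windows are chr11:19018970-19019219 on the minus strand for Meis1, chr2:116064620-116064869 on the minus strand for Meis2 and chr7:16175145-16175394 on the plus strand for Meis3, each written 5′ to 3′ along the gene.
Meis1: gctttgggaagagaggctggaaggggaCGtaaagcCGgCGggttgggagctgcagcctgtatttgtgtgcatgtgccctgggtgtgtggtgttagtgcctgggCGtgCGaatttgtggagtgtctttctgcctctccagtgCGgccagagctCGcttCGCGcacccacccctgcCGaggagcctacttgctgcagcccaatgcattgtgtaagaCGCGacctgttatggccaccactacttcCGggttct
Meis2: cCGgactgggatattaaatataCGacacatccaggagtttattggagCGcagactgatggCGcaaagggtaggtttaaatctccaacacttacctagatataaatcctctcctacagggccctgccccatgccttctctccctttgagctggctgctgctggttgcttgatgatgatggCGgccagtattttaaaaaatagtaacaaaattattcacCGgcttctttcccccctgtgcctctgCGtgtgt
Meis3: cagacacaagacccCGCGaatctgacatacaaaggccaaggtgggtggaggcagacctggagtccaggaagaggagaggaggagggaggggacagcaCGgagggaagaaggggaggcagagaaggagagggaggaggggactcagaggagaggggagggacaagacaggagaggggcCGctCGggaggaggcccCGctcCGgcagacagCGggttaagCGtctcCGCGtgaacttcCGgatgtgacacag
These windows hold 13, 7 and 12 CpG dinucleotides, against a median of 6 over 32841 mouse promoters of the same length. Searched on both strands, none of the 3 windows holds CAGATG, an E-box bound by NEUROD factors, which 14.45% of all promoters hold, or CAGGTG, the E-box of Scratch and Snail proteins, which 17.22% hold. The MEIS core TGACAG (15.86% of promoters) and the PBX sequence TGATTGAT (0.67%) had no match either. The general E-box CANNTG, which includes the first 2 motifs, matched once, 181 bases before this Meis1 start, and 66.23% of promoters hold at least 1. Absence of a match says only that these letters are not in these windows.

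The RNA values are in FPKM, fragment counts divided by transcript length and by library size, so levels can be compared between genes. The 15 libraries summed to between 429013 and 739846 FPKM, and 10709 to 12092 genes reached 1 FPKM in each. Their read depth is unknown. Neurod1 followed the labels, at 3288 ± 195 FPKM in ND1 day 2 libraries against 1.09 ± 0.0571 in control (SD, n = 3 each), and at 33.9 ± 2.40 against 1.56 ± 0.521 at day 7. Markers checked the labelled cells: 8 neuronal markers summed to 2530 to 2727 FPKM in neurons and 16.2 to 24.4 in control microglia, and 8 microglial markers to 5.85 to 6.96 FPKM in neurons and 3452 to 6088 in control microglia. ND1 day 7 libraries held 3450 to 3477 FPKM of the neuronal and 189 to 261 of the microglial markers.

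Differences between groups were tested with limma on log2(FPKM + 1) over 13599 genes of at least 1 FPKM in at least 3 libraries. On this scale the changes of low genes are understated. A gene is called higher or lower at a Benjamini-Hochberg adjusted p under 0.05 and a log2 difference of at least 1. All 6 members passed the filter on low values, but Scrt1 and Scrt2 reached 1 FPKM only in ND1 and neuron libraries, so that passing it already required a high group.

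Both Scratch genes were near the floor in control microglia and rose after ND1. Scrt1 read 0.744, 0.775 and 0.847 FPKM in control and 4.52, 4.01 and 3.66 in ND1 libraries at day 2. At day 7 it read 0.335, 0.396 and 0.30 FPKM in control, 20.2, 19.7 and 19.7 in ND1, and 21.5, 23.3 and 19.3 in neurons. Every ND1 library lay above every control library, and the ND1 day 7 and neuron values overlapped. The mean was 5.15 times the control mean at day 2 and 57.8 times at day 7. On the tested scale the day 7 difference was 3.96 (SE 0.07, limma adjusted p = 1.13e-15), and that between ND1 day 7 and neurons was -0.10 (95% interval -0.25 to 0.05), within the spread of the libraries.

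Scrt2, the second Scratch gene, read 0.464, 0.424 and 0.352 FPKM in control and 2.48, 1.68 and 1.88 in ND1 libraries at day 2. At day 7 it read 0.136, 0.0402 and 0.207 in control, 9.40, 9.24 and 8.92 in ND1, and 4.38, 4.76 and 3.94 in neurons. The ND1 day 7 libraries were the highest of all 15, at 2.11 times the neuron mean, with no overlap. Scrt2 rose by 1.08 at day 2 (SE 0.09, limma adjusted p = 1.36e-07) and by 3.18 at day 7 (SE 0.09, limma adjusted p = 1.17e-13). The day 2 value was close to the fold threshold: it was 0.98 without ND1 day 2 replicate 1 and 0.59 after quantile normalization. Against neurons, Scrt2 in ND1 day 7 libraries differed by 0.93 (95% interval 0.74 to 1.12), which missed the fold threshold, and by 1.06 with a pseudocount of 0.1 and 1.01 with equal FPKM sums, which passed it.

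The balance between the Scratch genes, a ratio within each library that multiplying a library by a constant does not touch, differed from neurons. Scrt1 stood at 2.16 ± 0.0406 times Scrt2 in ND1 day 7 libraries and at 4.90 ± 0.00509 times in neurons (SD, n = 3 each). In ND1 day 2 libraries the ratio was 2.05 ± 0.297, and in control day 2 libraries 1.95 ± 0.415. The ratio was chosen after the values were seen. The exact two-sided permutation test of ND1 day 7 against neurons gave p = 0.1, the smallest that 3 libraries against 3 allow. In control day 7 libraries both genes were too low for a steady ratio, which ran from 1.45 to 9.85.

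**Figure D1:**
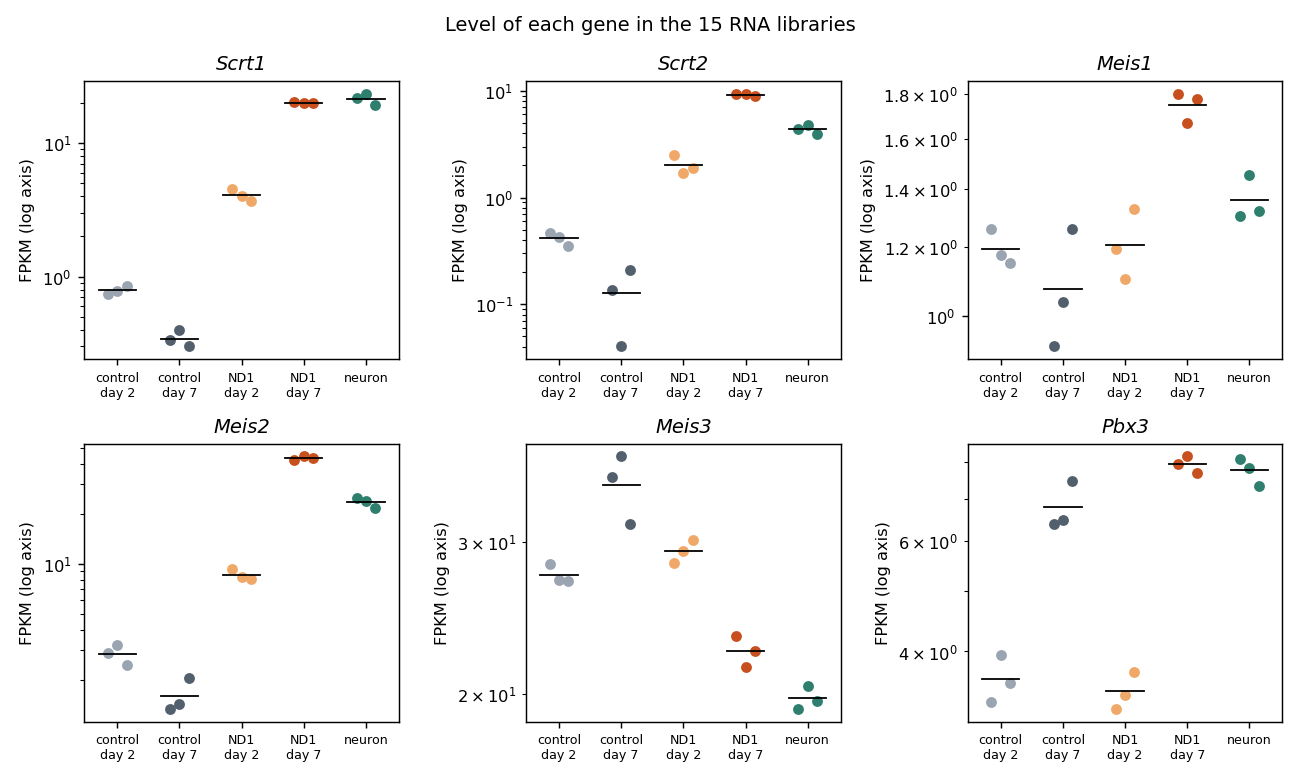
Levels of the 6 genes in FPKM, on a log axis that differs between panels, with 1 point per library and a line at the mean of each group of 3. Scrt1, Scrt2 and Meis2 span more than an order of magnitude between control and ND1 day 7 libraries, while Meis1, Meis3 and Pbx3 stay within narrow ranges.

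Meis2 was the only MEIS gene called after ND1. It read 2.91, 3.22 and 2.44 FPKM in control and 9.23, 8.27 and 8.07 in ND1 libraries at day 2. At day 7 the control libraries read 1.33, 1.43 and 2.05 FPKM, the ND1 libraries 42.0, 44.3 and 43.3, and neurons 25, 24.0 and 21.6. No 2 of the 5 groups overlapped, which was true of Meis3 too, and the share of all genes with this trait was not computed. The ND1 day 7 mean of Meis2 was 27.0 times its control and 1.84 times the neuron mean. Meis2 rose by 1.31 at day 2 (SE 0.10, limma adjusted p = 5.51e-08) and by 4.10 at day 7 (SE 0.10, limma adjusted p = 2.25e-14). Its excess over neurons at ND1 day 7 was 0.85 (95% interval 0.64 to 1.06, limma adjusted p = 2.90e-06), under the fold threshold.

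Meis3 was the most abundant member in control microglia and changed little. It read 28.3, 27.1 and 27.1 FPKM in control day 2, 35.6, 37.7 and 31.5 in control day 7, and 28.4, 29.3 and 30.1 in ND1 day 2 libraries. In ND1 day 7 libraries it read 23.3, 21.5 and 22.4 FPKM, and in neurons 19.2, 20.5 and 19.6. The ND1 day 7 libraries all lay below every control library. The log2 difference at day 7 was -0.61 (SE 0.06, limma adjusted p = 9.05e-08), short of the fold threshold, and it was 0.02 after scaling each library to the same FPKM sum, so its direction rests on the scaling. That scaling also moved the median of all tested genes in this contrast from 0.04 to 0.60, since ND1 day 7 and neuron libraries have lower FPKM sums (means of 453328 and 457275) than control day 7 libraries (714916).

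Meis1 was near 1 FPKM everywhere. It read 1.26, 1.18 and 1.15 FPKM in control day 2 and 0.921, 1.04 and 1.26 in control day 7 libraries. ND1 libraries read 1.19, 1.10 and 1.33 at day 2 and 1.80, 1.67 and 1.78 at day 7, and neurons 1.30, 1.45 and 1.32. The ND1 day 7 libraries were the highest of the 15, at 1.63 times the control mean. The log2 difference at day 7 was 0.41 (SE 0.06, limma adjusted p = 1.50e-05), under the fold threshold, and it was -0.07 after quantile normalization and 0.96 with equal FPKM sums.

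The make-up of the MEIS genes differed between control and ND1 libraries. Meis3 was 87.2% ± 1.11 of the summed MEIS FPKM in control day 2 and 92.8% ± 2.00 in control day 7 libraries (SD, n = 3 each). It was 75% ± 1.67 in ND1 day 2, 33.3% ± 1.44 in ND1 day 7 and 44.3% ± 1.99 in neuron libraries. Meis2 went the other way, from 4.32% ± 1.36 in control day 7 to 64.1% ± 1.54 in ND1 day 7 libraries, and stood at 52.6% ± 2.13 in neurons. Meis1 stayed between 2.43% and 3.88% in every library. The sum was 37.6 ± 2.68 FPKM in control day 7, 67.4 ± 0.182 in ND1 day 7 and 44.7 ± 1.84 in neuron libraries. The ND1 day 7 sum was 1.79 times that of its control as deposited and 2.83 times with equal FPKM sums. The log2 ratio of Meis2 to Meis3, which multiplying a library by a constant cannot move, was 5.41 higher in ND1 than in control libraries at day 7 and 0.70 higher in ND1 day 7 than in neuron libraries (exact two-sided permutation p = 0.1 in both, the smallest possible). These shares and ratios were chosen after the values were seen.

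**Figure D2:**
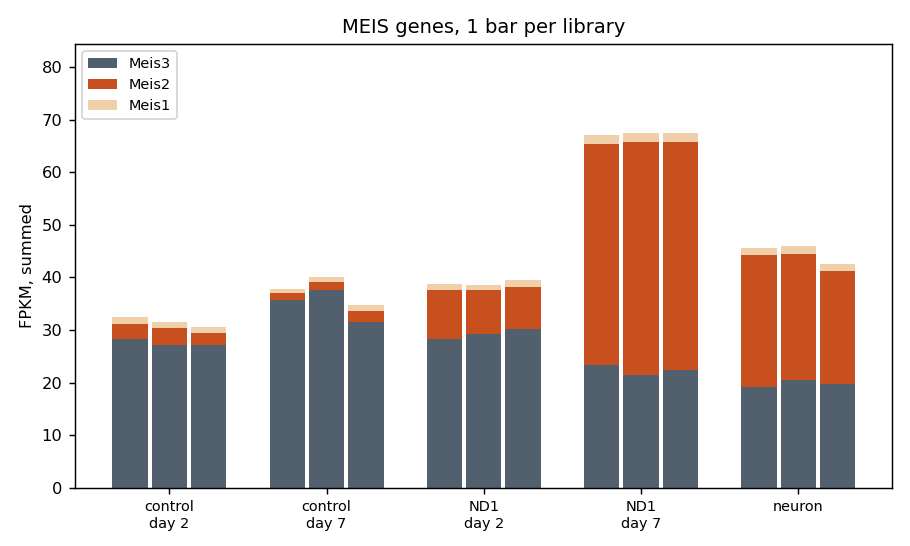
Summed FPKM of the 3 MEIS genes, 1 stacked bar per library and 3 libraries a group, on an axis that starts at 0. Meis3 takes most of each control bar (92.8% on average at day 7), and Meis2 most of each ND1 day 7 bar (64.1%).

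Pbx3, a PBX partner of MEIS proteins, differed more between days than between ND1 and control libraries. It read 3.33, 3.94 and 3.56 FPKM in control and 3.24, 3.41 and 3.71 in ND1 libraries at day 2, with overlapping ranges. At day 7 it read 6.39, 6.49 and 7.48 in control and 7.97, 8.18 and 7.69 in ND1 libraries, and 8.11, 7.85 and 7.35 in neurons. The ND1 difference was -0.05 at day 2 (95% interval -0.19 to 0.09) and 0.20 at day 7 (0.06 to 0.35), both far under the fold threshold. From day 2 to day 7 Pbx3 differed by 0.76 in control (SE 0.07, limma adjusted p = 2.59e-07), which missed the threshold. Markers of other cells also rose between the control days, 4 of 6 astrocyte and 3 of 6 fibroblast and mural markers, where 7.70% of all tested genes were called. The part of those cells in the Pbx3 difference was not tested. In ND1 libraries Pbx3 rose by 1.01 (SE 0.07, limma adjusted p = 2.49e-09), which just passed. The value was 0.97 without ND1 day 2 replicate 1 and 0.99 without ND1 day 7 replicate 2.

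**Figure D3:**
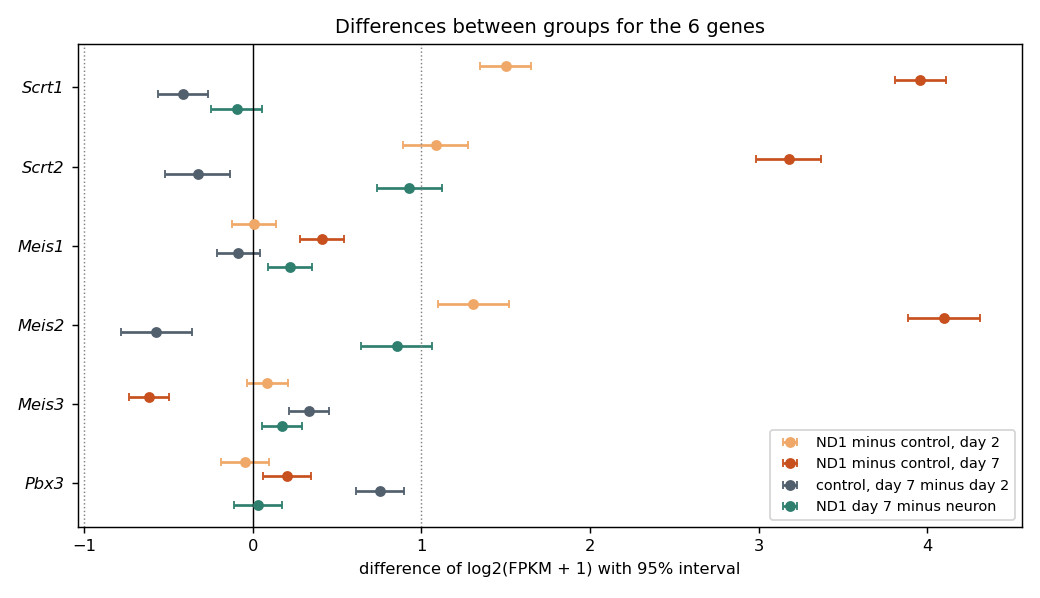
Differences of log2(FPKM + 1) for the 6 genes in 4 comparisons, with 95% intervals from limma (3 libraries a group) and dotted lines at the fold threshold of 1 on either side of 0. Scrt1, Scrt2 and Meis2 pass it after ND1 on both days (1.5, 1.08 and 1.31 at day 2), and no member passes it between ND1 day 7 and neurons.

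Of the 6 members, 3 were called higher in ND1 libraries at day 2, where 9.71% of all tested genes were called (9.10% higher). At day 7 the same 3, Scrt1, Scrt2 and Meis2, were called higher, where 50.2% of all genes were called (25.7% higher), and the members' median of 1.79 compares with 0.04 for all genes. At day 2 the medians were 0.59 and -0.04. On both days the members' median lay between the 3 called genes and the rest, and no member was near it. Scrt1 and Meis2 were singled out in these samples, and the Scratch genes passed the filter through high groups. These medians are therefore no evidence about the set. The ND1 difference was larger at day 7 than at day 2 by 2.46 for Scrt1, 2.09 for Scrt2 and 2.79 for Meis2 in the interaction test, which called 41.3% of all genes (20.5% higher) and gave 85.4% an adjusted p under 0.05. Neurons had the same 3 genes higher than control day 7 microglia, by 4.05, 2.25 and 3.24, in a comparison that called 53.4% of genes (28.1% higher). These comparisons share control libraries, so their likeness is no separate result. Against control day 2 microglia (55.0% called, 29.3% higher) the 3 were higher in neurons by 3.64, 1.92 and 2.67, and Pbx3 at 0.93 missed the fold threshold and passed it at 1.52 with equal FPKM sums.

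In control microglia alone 0 of the 6 members passed between day 2 and day 7 by limma, where 7.70% of genes were called. The differences were -0.41 for Scrt1, -0.33 for Scrt2, -0.57 for Meis2, 0.33 for Meis3, 0.76 for Pbx3 and -0.09 for Meis1. Of these, 5 had an unadjusted p under 0.05, Meis1 being the exception. The share of all tested genes at that mark is not given here, so the count is no result about the members. With a pseudocount of 0.1, Scrt1 (-1.01) and Scrt2 (-1.24) passed. In ND1 libraries Scrt1 rose by 2.05, Scrt2 by 1.77 and Meis2 by 2.22 from day 2 to day 7, along with Pbx3, where 43.7% of genes were called (22.6% higher). Meis1 and Meis3 differed by 0.32 and -0.37, and Meis3 by 0.04 with equal FPKM sums. Between ND1 day 7 and neurons 0 of 6 members passed by limma, where 13.5% of genes were called. Scrt2, Meis2, Meis1 and Meis3 had an unadjusted p under 0.05, again without the share of all genes at that mark.

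The day 2 rise of the 3 genes was set beside that of neuronal genes in general. For 669 genes that were at least 20 times higher in neurons than in control day 7 microglia, whose means reached 10 FPKM both in neurons and at ND1 day 7 and which had no 0 in any ND1 or neuron library, the rise in ND1 day 2 libraries was a median of 17.1% of the rise in ND1 day 7 libraries, both over control day 2, with an interquartile range of 16.3% to 17.6%. Scrt1, the only member among the 669 (Scrt2 and the others do not meet these limits), stood at 17.2%, with 15.1% to 19.5% in the 3 ND1 day 2 libraries. Scrt2 stood at 18.2% (14.4% to 23.5%) and Meis2 at 14.0% (12.9% to 15.8%). The 5th to 95th percentile range of the 669 genes, from group means, was 15% to 18.9%. By its group mean Meis2, which is not among the 669, was below it, and Scrt1 and Scrt2 were inside it. Single libraries crossed these limits, with Meis2 up to 15.8%, Scrt1 up to 19.5% and Scrt2 from 14.4% to 23.5%. Pbx3 stood at -3.55%, and Meis1 and Meis3 at ND1 day 7 were not 2 times their control day 2 level, so no share was computed.

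Neuronal markers moved with these values: the 8 of them summed to 558 to 693 FPKM in ND1 day 2 libraries, against 21.1 to 24.4 in control day 2. All 8 were called higher, as were 9.10% of all tested genes. In bulk RNA, fewer cells of a type and less RNA per cell cannot be told apart. When 17.1% of the ND1 day 7 profile was taken out of the ND1 day 2 libraries, the day 2 difference was -0.02 for Scrt1, 0.07 for Scrt2 and -0.73 for Meis2. These values restate the shares above, since subtracting a share near a gene's own leaves a value near 0, and are no separate test. The part of a common share in the day 2 calls was not tested.

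**Figure D4:**
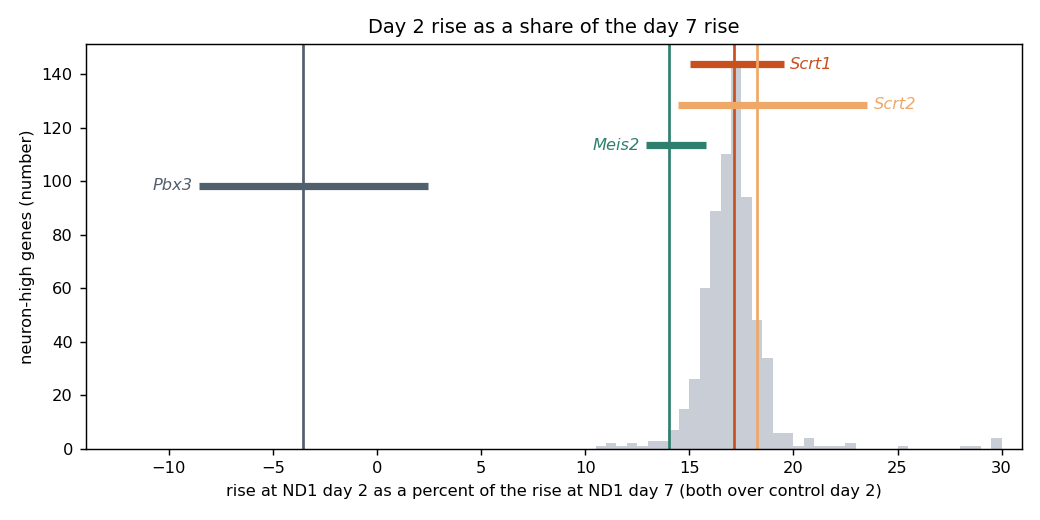
Histogram of the rise in ND1 day 2 libraries as a percent of the rise in ND1 day 7 libraries for 669 neuron-high genes, with 3 genes above 30% drawn in the last bin. Vertical lines mark Scrt1 (17.2%), Scrt2 (18.2%), Meis2 (14.0%) and Pbx3 (-3.55%), and horizontal bars run from the lowest to the highest of the 3 ND1 day 2 libraries.

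Other TALE genes were read from a list of 14, of which 8 passed the filter on low values. At day 7, 3 of the 8 rose and 2 fell after ND1, where 50.2% of all tested genes were called (25.7% higher). Pknox2, a MEIS-related gene, rose by 3.82, from 0.379 ± 0.0558 to 18.5 ± 0.318 FPKM, and Pbx4 rose by 1.80. Tgif1, a TALE repressor gene of TGF-beta signalling, fell by 3.38, from 65.0 ± 3.81 to 5.34 ± 0.543 FPKM, and Pbx2 fell by 2.01. Pknox2 also rose at day 2, by 1.66. Pknox2 and Pbx4 reached 1 FPKM in no control library and passed the filter through the other groups. The median over the 8 genes was 0.32 at day 7, against 0.04 for all genes. The 6 Irx genes of the list stayed under the filter, at 0.121 FPKM or less.

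HOX genes, whose proteins bind with PBX and MEIS partners, were almost silent in these libraries. None of 39 listed HOX genes passed the filter, 26 to 34 of them were listed at 0 in all 3 libraries of a group, and their sum did not exceed 1.26 FPKM in any library. Of 10 genes known in blood stem cells, where Meis1 is a regulator, 4 passed the filter. Lmo2, Runx1 and Tal1, blood transcription regulator genes, fell by 3.65, 3.08 and 1.79 at day 7, and Kit, a receptor tyrosine kinase gene that neurons express too, rose by 2.74, having passed the filter only outside the control libraries. Lmo2 went from 174 ± 8.03 to 13.0 ± 1.54 FPKM. At day 2 the differences of the 4 lay between -0.20 and 0.79, under the fold threshold. Their median at day 7 was -2.44, against 0.04 for all genes, of which 50.2% were called.

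Genes of the striatal and interneuron lineages in which Meis2 is known were read from a list of 25, of which 22 were tested. At day 7, 16 of the 22 rose after ND1, with a median of 1.24 against 0.04 for all genes, of which 25.7% were called higher. Of the 22, 14 reached 1 FPKM in no control library and so passed the filter through a higher group, 11 of the 16 among them, Bcl11b included. Gad1, which encodes a GABA-synthesising enzyme, rose by 3.33, and Bcl11b, Dlx1 and Dlx5, transcription factor genes of these lineages, rose by 3.21, 2.99 and 2.82. At day 2 only Gad1 and Bcl11b of the 22 passed, by 1.17 and 1.11, where 9.10% of all tested genes were called higher. After quantile normalization the 2 values were 0.80 and 0.74, under the fold threshold. Against neurons, 5 of the 22 were lower in ND1 day 7 libraries, with Gad1 at 28.0 ± 1.40 FPKM in ND1 and 166 ± 8.67 in neuron libraries. In that comparison 13.5% of all tested genes were called. Meis2 itself was 1.84 times higher in ND1 day 7 libraries than in neurons.

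The SNAG motif is known to recruit the LSD1-CoREST complex, which removes methyl groups from histone H3. Of 9 other SNAG genes 1 passed the filter: Insm1, a neuroendocrine and neuronal progenitor factor gene, which rose by 1.00 at day 2 (SE 0.05), at the threshold itself, and by 2.87 at day 7. It reached 1 FPKM in no control library, so passing the filter already required a high group. It stood at 7.14 ± 0.280 FPKM in ND1 day 7 and 1.11 ± 0.0256 in neuron libraries (log2 difference 1.95). The Snail genes, Gfi1 and the rest stayed at or under 0.954 FPKM in every library. All 12 listed genes of the LSD1-CoREST complex were tested, and at day 7 6 rose and 1 fell. Of all tested genes, 50.2% were called in that contrast (25.7% higher). Hdac2, a histone deacetylase gene, rose by 3.00, Rcor2, a CoREST gene under 1 FPKM in every control library, by 2.49, and Kdm1a, which encodes LSD1, by 1.85. Hmg20b, a subunit gene, fell by 2.39. Rcor1, the main CoREST gene of control microglia, had a difference of -0.84 and did not pass. At day 2 Hdac2 (1.02) and Rcor2 (1.49) passed, where 9.71% of all tested genes were called. The list's median was 0.53 at day 7, against 0.04 for all genes.

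Markers of other cells were measured beside these results. Fibroblast and mural markers summed to 36.6 to 39.6 FPKM in ND1 day 7, 25.6 to 35.3 in control day 7 and 13.5 to 14.4 in neuron libraries, and 4 of 6 tested rose at day 7. They summed to 6.92 to 8.38 FPKM in ND1 day 2 and 1.18 to 2.35 in control day 2 libraries, where Rgs5 was at 0. Astrocyte markers summed to 26.7 to 28.0 FPKM in ND1 day 7 and 65.7 to 69.5 in control day 7 libraries, with 3 of 6 lower. In control day 2 libraries they summed to 17.9 to 19.5 FPKM, and 4 of 6 rose from control day 2 to day 7, where 7.70% of all tested genes were called. Oligodendrocyte markers summed to 12.3 to 13.3 and 69.3 to 70.8 FPKM, with 1 of 4 higher and 2 lower, and Mog at 0 in control day 7. Cnp (-3.35) and Mbp (-1.53) were lower and Mog (1.38) was higher. Endothelial markers summed to 1.27 to 1.53 and 7.47 to 8.68 FPKM, both tested ones lower, with Cldn5 at 0 in control libraries of both days. Neural progenitor markers summed to 260 to 273 and 562 to 593 FPKM, with 2 of 5 higher and 1 lower. Vim fell (-2.72) while Fabp7 and Hes5 rose (2.53 and 1.21), so the lower sum does not hold for each marker. Mog and Hes5 reached 1 FPKM in no control library. Of all tested genes, 50.2% were called at day 7. The part of other cells in the members' levels was not tested.

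Genes most like each member across the 5 groups were found by the root mean square difference of centred log2(FPKM + 1) group means, over 5 groups. Scrt1 was near to Bend6 (0.07) and Fam171b (0.09), and Scrt2 to Acvr2a (0.06), Sez6 (0.08) and Nfib (0.08). Meis2 was nearest to Tiam2 (0.11), Traf4 (0.13) and Sertad4 (0.13), all with higher means in ND1 day 7 libraries than in neurons. Meis3 was nearest to Mesdc2 (0.04), Phkb (0.04) and Bloc1s1 (0.05), Meis1 to Polr3f (0.03), Ift74 (0.03) and Ubap2 (0.04), and Pbx3 to Hsd17b10 (0.06), Trappc4 (0.07) and Dfna5 (0.07). Among the members, Scrt1 and Meis2 differed by 0.36 and Scrt2 and Meis2 by 0.38, less than Scrt1 and Scrt2 did (0.65). The added 1 shrinks differences of genes under 1 FPKM, as both Scratch genes were in control libraries. The order of these distances was not tested on another scale.

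DNA methylation was compared as the methylated fraction per CpG position in 1 control and 1 ND1 library, so no difference has a replicate check. The files give no coverage, and the depth behind each fraction is unknown. Over 15113327 positions present in both, the mean fraction was 0.700 in control and 0.703 in ND1 cells. Within 1000 bases of the start, the Meis2 promoter had a mean fraction of 0.0112 in control and 0.0172 in ND1 cells over 52 positions. The Meis1 promoter had 0.0130 and 0.0176 over 93 positions, and the Meis3 promoter 0.0673 and 0.0808 over 49. In the 250 bases printed above, the mean was 0.0531 and 0.0605 at Meis2, 0 and 0.0236 at Meis3, and 0.0021 and 0.0123 at Meis1. These means rest on only 5 positions at Meis2, 6 at Meis3 and 14 at Meis1, with a position at the window's edge among the 14. The Meis2 start, in the gene whose RNA rose 27.0-fold, was nearly free of methylation in control microglia too. Of 27688 promoters, 1 (0.00361%) differed by 0.2 or more between the libraries.

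The unmethylated stretch around the Meis2 start was long. Consecutive 1-kb windows with a mean of at most 0.3 ran over 17 kb in both libraries, 5 kb downstream and 12 kb upstream of the start used. The nearest 2918 bases of the upstream side lie inside the annotated gene. This was longer than around 99.55% of promoters in control and 99.47% in ND1 cells, and the median over all promoters was 1 kb. Around Meis1 the stretch was 4 kb and around Meis3 2 kb, in both libraries.

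**Figure D5:**
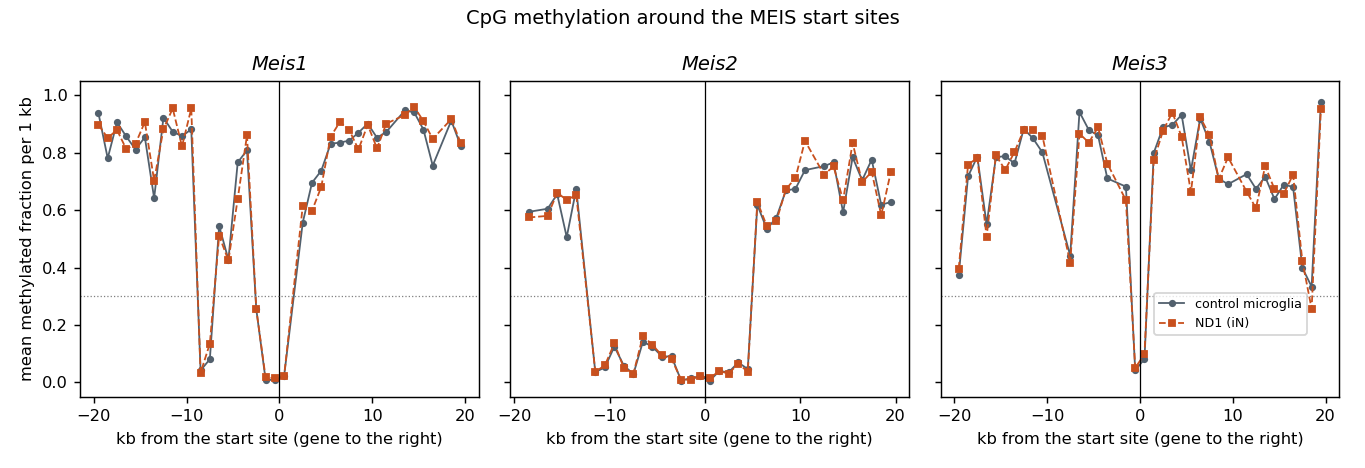
Mean methylated fraction in 1-kb windows from the start sites of Meis1, Meis2 and Meis3, with the gene to the right, in 1 control and 1 ND1 library, and a dotted line at 0.3. Both libraries follow the same course, and the low stretch spans 17 kb at Meis2, 4 kb at Meis1 and 2 kb at Meis3.

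For Scrt1, Scrt2 and Pbx3, whose gene bodies and ends were read instead, 1 end of each gene was nearly unmethylated. The mean within 1000 bases of that end was 0.0316 in control and 0.0425 in ND1 cells for Scrt1 (84 positions), 0.0221 and 0.0178 for Scrt2 (105 positions) and 0.00579 and 0.00839 for Pbx3 (151 positions). Over the gene body Scrt1 had a mean of 0.178 and 0.183, lower than in all but 4.53% of 25963 genes in control, and Scrt2 had 0.276 and 0.273, lower than in all but 7.10%. The gene body ran from end to end of each gene, the low end included. An end region of fixed size is a larger part of Scrt1 (5927 bases) and Scrt2 (14274) than of Meis2 (206274) or Pbx3 (200589). The ranking takes no account of length. The bodies of Meis2 (0.595 in both), Meis3 (0.558 and 0.562), Meis1 (0.781 and 0.785) and Pbx3 (0.763 and 0.764) were more methylated. No gene body of the 25963 differed by 0.2. Of the 1-kb windows along the 6 genes, 1 differed by 0.2 or more, in Pbx3, at 0.616 in control and 0.376 in ND1 cells over 3 positions.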

How the data were processed

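Per the submitters' processing notes, the RNA reads were handled with TopHat, Bowtie2, Cufflinks and Cuffdiff on build mm10, and the authors deposited 1 FPKM table per library. No source used here states their versions, the annotation or the strand setting. The deposited bisulfite files hold a methylated fraction (0 to 1) per CpG position, from post-bisulfite adaptor tagging per the labels' protocols, with no coverage. Aligner, caller and coverage minimum were likewise unstated.

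From these, log2(FPKM + 1) of 15 libraries was fitted with group means in limma 3.58.1 (R 4.3.3), with an intensity trend and 1 shared spread, after leaving out 4 rows with a duplicated symbol. The test recovered known changes on simulated data with 200 genes changed. Those changes were larger than the fold threshold and of fewer genes than here, so this checks only the code. No count test was used, since the files hold no counts. No pair of libraries was identical. Single ratios were tested by exact permutation. Methylation was averaged over positions present in both libraries, for promoters with at least 10 and gene bodies with at least 50 positions. Windows needed 3. Gene ends and windows along the genes were added after the data were seen. Gene coordinates are RefSeq's on GRCm38.p6. Python 3.11.15 was used for the rest.

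The members and gene lists were chosen with earlier results of these data known. The text names all members, up to 4 called genes with the largest day 7 change per list, and the 3 genes nearest to each member. Rcor1 was named after its values were seen. Some genes that these rules name are not reported here. Alternatives covered the pseudocount, filters, scaling, the libraries fitted, the trend, the replicate block, each replicate left out and the removal of a day 7 share.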

Additional observations from a re-analysis of the deposited data

Results flagged for a closer look

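The difference between ND1 and control libraries itself differed between day 7 and day 2 for all 6 members, by limma's interaction test at an adjusted p under 0.05, a mark that 85.4% of all tested genes reached. The day 7 difference minus the day 2 difference was 2.46 for Scrt1, 2.09 for Scrt2 and 2.79 for Meis2, which also passed the fold threshold. It was 0.40 for Meis1, -0.70 for Meis3 and 0.25 for Pbx3, which did not. For Meis3 it was -0.24 with equal FPKM sums.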

How the results depend on the processing

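Of 766 recomputed member values, 752 kept their call, 14 of them with a changed sign, all of uncalled members. Removing the day 7 share reversed 2 day 2 values, Scrt1 to -0.021 and Meis2 to -0.73, took Scrt2 to 0.07 and left 134 genes called at day 2 (98 higher, 36 lower) in place of 1321 (1237 and 84). A pseudocount of 0.1 gave 2524 calls at day 2, 1892 in place of 1047 between control days, and 2929 in place of 1840 between ND1 day 7 and neurons. The moves after removal follow from the subtraction itself, and the cause of those with the pseudocount was not tested. Equal FPKM sums moved the split of higher and lower calls from 3497 and 3329 to 5578 and 2447 at day 7, from 2790 and 2824 to 4806 and 2359 for the interaction, and from 3075 and 2866 to 4853 and 2484 between ND1 days. For neurons the split went from 3824 and 3433 to 5871 and 2672 against control day 7, and from 3982 and 3502 to 5751 and 2808 against control day 2. Equal sums turned Meis3 at day 7 (0.02), between ND1 days (0.04) and between neurons and control day 2 (0.11), and Pbx3 at day 2 (0.09). Quantile normalization turned Meis1 at day 2 (-0.51), at day 7 (-0.07) and between neurons and control day 7 (-0.13) or day 2 (-0.33), and Pbx3 between ND1 day 7 and neurons (-0.0027). The other 5 sign changes were of Meis1 and Pbx3 values near 0, between -0.07 and 0.0033. All 40 calls in the lists of relatives, partners, lineage and blood genes at days 2 and 7 kept their direction under both scalings. Not all kept their size. After quantile normalization Insm1 (0.65), Bcl11b (0.74) and Gad1 (0.80) fell under the fold threshold at day 2. At day 7 some of the lineage genes did too, at 0.67 to 0.87. A pseudocount of 0.5 took Pbx3 past the threshold between neurons and control day 2 (1.01), and one of 0.1 did too (1.09).

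Leaving out 1 replicate gave 1236 to 1362 calls at day 2 and 6762 to 6826 at day 7. Same-numbered replicates did not vary together: of 30 pairs of libraries with the same number, 2 had deviations correlated above 0.1, and the range was -0.226 to 0.161. The replicate block gave 1319 calls at day 2 and 6826 at day 7 and changed no member's call. For methylation, 500 bases in place of 1000 lowered the Meis3 promoter mean to 0.0101 in control and 0.0195 in ND1 cells, and a limit of 0.2 shortened the Meis1 stretch to 3 kb in both. Scrt1, Scrt2 and Meis1 lie near or under 1 FPKM in control libraries, where the unknown depth limits what can be said of their ratios.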
